A study of Homo sapiens with 4 samples.

Results

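The proteasome genes were examined in the RNA-seq libraries of MDA-MB-231 cells. They were taken by name, as every protein-coding gene whose symbol is PSMA, PSMB, PSMC or PSMD followed by a number, together with PSME1 to PSME4, PSMF1 and PSMG1 to PSMG4, with 1 immunoproteasome gene left out. This rule gave 47 of the 61541 genes in the count table. MDA-MB-231 is an established human breast cancer line. The cadmium group was passaged long term in cadmium sulfate, raised stepwise to 10 µM, and the paper calls these cells cadmium resistant. The control group was passaged in ordinary medium. Both groups are the same line, with no engineered allele in either. Each group had 2 libraries (n = 2), named here control 2, control 3, cadmium 1 and cadmium 2 as in the count table. The controls are labelled biological replicates while the cadmium libraries are labelled only replicates, so p-values measure the spread between these libraries, which may be technical in part.

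The proteasome is the protease that degrades proteins tagged with ubiquitin. Its core is a barrel of stacked alpha and beta rings, with the catalytic sites inside the beta rings, and a regulatory particle made of a base and a lid recognizes, unfolds and feeds in the substrates. Cadmium binds thiol groups and is known to cause protein misfolding, and the transcription factor encoded by NFE2L1 is known to raise proteasome genes together when proteasome activity is short. The comparison therefore asked whether the members differed in cadmium-resistant cells, as a group or singly.

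The members were set in 6 groups by role. These were the core alpha ring (8 genes), the core beta ring (10), the base (9), the lid (8), assembly factors (7), and activators with 1 inhibitor (5). Together they took 0.656% and 0.534% of all counted reads in control 2 and control 3, against 0.559% and 0.593% in cadmium 1 and cadmium 2. The shares of the cadmium libraries lay between those of the controls. Total counts were 51934729 to 61916007 per library. The line was checked by its markers. VIM was at 571 to 714 TPM (reads per length of the gene, scaled to a fixed total per library), AXL at 1276 to 1426, CAV1 at 1025 to 1251 and CD44 at 163 to 203, but SPARC was only at 0.860 to 2.46. ESR1, PGR and FOXA1 reached at most 0.0999, 0.153 and 0.254 TPM in any library. CDH1 reached 7.91 and ERBB3 6.33, both in control 3, and GATA3 reached 21.1 in control 2, so these luminal or epithelial markers were low but not absent. In bulk samples fewer cells with a transcript and less transcript per cell cannot be told apart. The controls differed more from each other than the cadmium libraries did, with a median absolute log2 ratio over all genes tested of 0.49 and 0.17, so the members are also given against each control alone.

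Proteasome promoters were searched for the antioxidant response element, the DNA element bound by NFE2L1 and NFE2L2, to show which members carry it. The letters searched were TGACNNNGC on both strands, in RefSeq promoters (GRCh38.p14) running from 250 bases before to 50 bases after the start. Some genes have several such windows. Of 41 members with an entry, 14 (34.1%) held a match in any window, as did 16.1% of all 27305 genes with an entry. Counted by window, the match was in 14 of 50 windows of members (28%) and in 13.3% of all 35116 windows. PSMB7, PSMG3, PSMA7, PSMB6, PSMD4 and PSMB1 had no entry. The following windows of 59 bases show the match in capitals, 5′ to 3′ on the strand of the gene. They are given for the 6 members where a whole window lies before the start and touches no annotated exon.
PSMB3, chr17:38752612-38752670, plus strand: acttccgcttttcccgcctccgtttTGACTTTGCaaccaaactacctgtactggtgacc
PSMD3, chr17:39980745-39980803, plus strand: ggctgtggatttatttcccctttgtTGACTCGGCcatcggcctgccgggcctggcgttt
PSMD12, chr17:67366709-67366767, minus strand: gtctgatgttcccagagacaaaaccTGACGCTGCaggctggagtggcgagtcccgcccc
PSMD9, chr12:121888663-121888721, plus strand: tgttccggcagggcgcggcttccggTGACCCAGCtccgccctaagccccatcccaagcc
PSMG1, chr21:39183601-39183659, minus strand: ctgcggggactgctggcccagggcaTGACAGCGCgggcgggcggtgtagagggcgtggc
PSME1, chr14:24136083-24136141, plus strand: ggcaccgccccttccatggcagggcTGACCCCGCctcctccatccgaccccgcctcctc

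The matches began 37 bases before the start in PSMD3, 86 in PSME1, 102 in PSMD9, 104 in PSMB3, 165 in PSMD12 and 183 in PSMG1. A match is a description of the letters and not a bound site. The metal response element, bound by MTF-1, was searched with the letters TGCACNC or TGCGCNC on both strands. It was found in 14 of 41 members (34.1%) and in 33.4% of all genes, or in 15 of 50 windows of members (30%) and in 29.6% of all windows. The expression of the 6 members shown differed in direction. Log2 fold changes were -0.56 for PSMG1, -0.23 for PSME1, -0.12 for PSMB3, -0.03 for PSMD3, -0.01 for PSMD9 and 0.14 for PSMD12, and none passed the test described next.

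Control and cadmium libraries overlapped for 35 of the 45 tested proteasome genes, and DESeq2 called no member in cadmium-resistant cells. Both cadmium libraries were above both controls for 6 members and below for 4, beside 20.3% and 19.9% of all genes tested. Of 47 members 45 were tested, and 0 had an adjusted p-value below 0.1, the threshold for a call, beside 1.14% of all 19816 genes tested. At an unadjusted p-value below 0.05 there were 0 members as well, beside 6.92% of all genes. The lowest unadjusted p-value was 0.174 and the lowest adjusted p-value 0.950, both for PSMG1. The quasi-likelihood test of edgeR and limma-voom also gave 0 members at an unadjusted p-value below 0.05, with a lowest edgeR p-value of 0.0976 for PSMC2. PSMA8, the testis form of an alpha subunit, had no read in any library. PSMB11, the thymus form of a catalytic subunit, had 2 reads in cadmium 1 and none elsewhere. A count of 0 allows up to 3 counts by counting error, so neither gene could be compared.

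The median log2 fold change of the 45 members was -0.03, close to the -0.02 of all genes tested. Estimates were above 0 for 17 members and below 0 for 28, beside 9398 and 10418 of all genes tested. Medians were 0.04 for the alpha ring, -0.06 for the beta ring, -0.01 for the base, -0.02 for the lid, -0.06 for assembly factors and -0.05 for the activators and inhibitor. With upper-quartile factors the median was above 0 for all members (0.03), the base (0.05), the lid (0.04), assembly factors (0.0034) and the activators and inhibitor (0.01). With limma-voom it was above 0 for the base (0.03). The sign of these small medians thus depends on the scaling and the method. Estimates lay within 0.3 of no change on the log2 scale for 39 members. The 95% interval of the fold change lay wholly within 2-fold for 40 members. Standard errors ran from 0.24 to 0.84 with a median of 0.28, so a change smaller than these intervals was not detectable. For 6 members both cadmium libraries were above both controls, PSMA3, PSMC1, PSMC4, PSMC6, PSMD13 and PSMG4, a pattern held by 20.3% of all genes. For 4 members both were below, PSMA6, PSMC2, PSMG3 and PSME1, a pattern held by 19.9% of all genes. In the other 35 the groups overlapped.

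**Figure D1:**
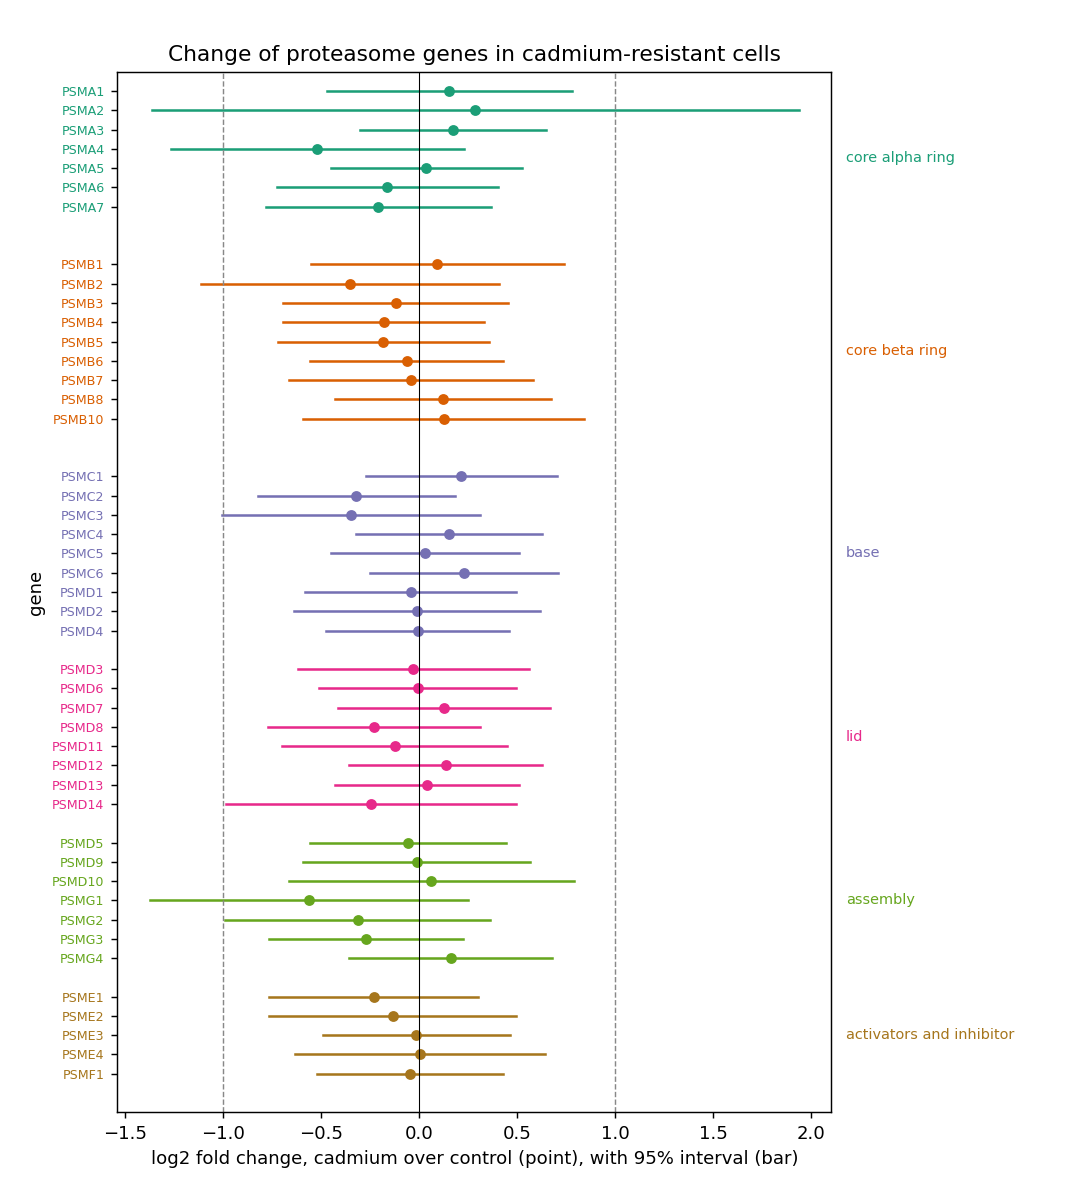
Log2 fold change of cadmium over control (x axis) for each of the 45 tested proteasome genes (y axis), by role, with points for the DESeq2 estimate and bars for the 95% interval; dashed lines mark 2-fold changes. All intervals include 0, and 40 lie within the dashed lines.

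In the alpha ring, the outer ring of the core that gates entry of substrates, PSMA4 and PSMA7 had the largest estimates among well-counted genes. PSMA4 (ENSG00000041357, chr15:78540405-78552417, plus strand) had 12535 and 6220 normalised counts in control 2 and control 3, against 6340 and 6758 in cadmium 1 and cadmium 2. Control 2 alone stood high, and the cadmium libraries were close to control 3. The log2 fold change was -0.52 ± 0.38 (SE), and its interval ran from -1.27 to 0.23. PSMA7 (ENSG00000101182, chr20:62136733-62143440, minus strand) had 27142, 19331, 18852 and 21419 normalised counts in the same order. One cadmium library lay below both controls and the other between them, at a log2 fold change of -0.21 ± 0.29 (SE). PSMA3 had 5228 and 5358 in the controls and 5814 and 6126 in the cadmium libraries, and its log2 fold change was 0.17 ± 0.24 (SE). PSMA5 was between 5846 and 6600 in all libraries.

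In the beta ring the 3 constitutive catalytic subunits cut after different residues. PSMB5 (ENSG00000100804, chr14:23016543-23035230, minus strand), the chymotrypsin-like subunit and main target of proteasome inhibitors, had 9434, 7278, 6997 and 7730 normalised counts in control 2, control 3, cadmium 1 and cadmium 2. The cadmium libraries stood on either side of control 3 and below control 2, with a log2 fold change of -0.18 ± 0.27 (SE). PSMB6 (ENSG00000142507, chr17:4796144-4798502, plus strand), the caspase-like subunit, had 6870, 6490, 5956 and 6844, and its log2 fold change was -0.06 ± 0.25 (SE). PSMB7 (ENSG00000136930, chr9:124353465-124415444, minus strand), the trypsin-like subunit, had 11942, 7639, 9135 and 9902, so that both cadmium libraries lay between the controls, and its log2 fold change was -0.04 ± 0.32 (SE). The largest estimate in the ring was that of PSMB2 (ENSG00000126067, chr1:35599541-35641526, minus strand), a structural subunit. It had 14739, 7207, 7993 and 9189 normalised counts and a log2 fold change of -0.35 ± 0.39 (SE). Again control 2 alone was high. PSMB1, PSMB3 and PSMB4, also structural subunits, had log2 fold changes of 0.09, -0.12 and -0.18.

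The immunoproteasome subunits PSMB8 and PSMB10 take the places of PSMB5 and PSMB7 in cells exposed to interferon. PSMB8 (ENSG00000204264, chr6:32840717-32844679, minus strand) had 2366 and 3123 normalised counts in control 2 and control 3, against 2963 and 3012 in cadmium 1 and cadmium 2. Its cadmium values lay between the controls, with a log2 fold change of 0.12 ± 0.28 (SE). PSMB10 (ENSG00000205220, chr16:67934506-67936864, minus strand) had 347, 503, 396 and 531, with a log2 fold change of 0.13 ± 0.37 (SE). Per length, PSMB8 made up 10.0%, 16.0%, 15.9% and 14.8% of the sum of PSMB8 and PSMB5 in the same order of libraries. With the length of the main transcript in place of all exons of the gene these shares were 18.9%, 28.5%, 28.2% and 26.6%, in the same order of size. By all exons, control cells had a mean of 13.0% ± 4.24 (SD, n = 2) while cadmium-resistant cells had 15.3% ± 0.762 (SD, n = 2), and the lower control lay below both cadmium libraries while the other lay above both. PSMB10 made up 3.10%, 6.75%, 4.55% and 5.57% of the sum of PSMB10 and PSMB7, and these ranges overlapped too. Neither share was tested.

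The base holds the ring of ATPases PSMC1 to PSMC6, which unfold substrates, and the scaffold and receptor subunits PSMD1, PSMD2 and PSMD4. PSMC3 (ENSG00000165916, chr11:47418769-47426473, minus strand) had 22683, 13413, 13642 and 14725 normalised counts in control 2, control 3, cadmium 1 and cadmium 2, with a log2 fold change of -0.35 ± 0.34 (SE). PSMC2 (ENSG00000161057, chr7:103328570-103370346, plus strand) had 8125, 6821, 5857 and 6119, and was the one member of the base with both cadmium libraries below both controls. Its log2 fold change was -0.32 ± 0.26 (SE), with an adjusted p-value of 0.983. PSMC1, PSMC4 and PSMC6 had the opposite order, with both cadmium libraries above both controls and log2 fold changes of 0.22, 0.15 and 0.23. Within the ATPase ring the estimates therefore went both ways, and none was called. PSMD4 (ENSG00000159352, chr1:151254709-151267479, plus strand), a ubiquitin receptor, was the steadiest member of the base, with 8544, 8295, 8227 and 8525 normalised counts and a log2 fold change of -0.01 ± 0.24 (SE). PSMD2, a scaffold on which the particle is held together, had 47752, 29976, 36977 and 40213 normalised counts, so that the controls stood further apart than the groups.

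In the lid PSMD14 (ENSG00000115233, chr2:161308425-161411717, plus strand) is the deubiquitinase that removes ubiquitin chains before degradation. It had 8217 and 4165 normalised counts in control 2 and control 3, against 5086 and 5374 in cadmium 1 and cadmium 2, and both cadmium libraries lay between the controls. Its log2 fold change was -0.24 ± 0.38 (SE), with an interval from -0.98 to 0.50. PSMD8 (ENSG00000099341, chr19:38374550-38383824, plus strand), a structural lid subunit, had 15132, 11960, 10636 and 12487, with a log2 fold change of -0.23 ± 0.28 (SE). The other 6 lid genes had log2 fold changes from -0.12 for PSMD11 to 0.14 for PSMD12. PSMD13 had 6724 and 6740 normalised counts in the controls and 6790 and 7044 in the cadmium libraries, so its place outside the control range rested on a difference of 0.04 on the log2 scale.

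Assembly factors build the core and the base and leave the finished particle. PSMG1 (ENSG00000183527, chr21:39174769-39183488, minus strand), a chaperone of the alpha ring, had the largest estimate of all members. It had 3942 and 1777 normalised counts in control 2 and control 3, against 1824 and 2049 in cadmium 1 and cadmium 2. Control 2 was high and the cadmium libraries were both above control 3, with a log2 fold change of -0.56 ± 0.41 (SE) and an interval from -1.37 to 0.25. PSMG2 (ENSG00000128789, chr18:12658043-12725740, plus strand), which pairs with PSMG1 in the same chaperone, had 3486, 2062, 2106 and 2359 and a log2 fold change of -0.31 ± 0.34 (SE). The chaperones PSMG3 and PSMG4 also act as a pair, and had log2 fold changes of -0.27 and 0.16. PSMD10 (ENSG00000101843, chrX:108084207-108091549, minus strand), the base chaperone also known as gankyrin, had 1507 and 2850 in control 2 and control 3, against 2277 and 2273 in cadmium 1 and cadmium 2. Its cadmium libraries were almost equal and lay between the controls, at a log2 fold change of 0.06 ± 0.37 (SE).

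Among the activators PSME1 and PSME2 form the interferon-inducible cap of the core. PSME1 (ENSG00000092010, chr14:24136163-24138967, plus strand) had 6657, 8688, 6530 and 6539 normalised counts in control 2, control 3, cadmium 1 and cadmium 2, with both cadmium libraries just below the lower control. Its log2 fold change was -0.23 ± 0.27 (SE). PSME2 (ENSG00000100911, chr14:24143362-24147570, minus strand) had 4351, 6754, 4690 and 5437, with a log2 fold change of -0.13 ± 0.32 (SE) and cadmium values between the controls. PSME3 and PSME4, the nuclear activators, and PSMF1, the inhibitor of the core, had log2 fold changes of -0.01, 0.01 and -0.05.

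**Figure D2:**
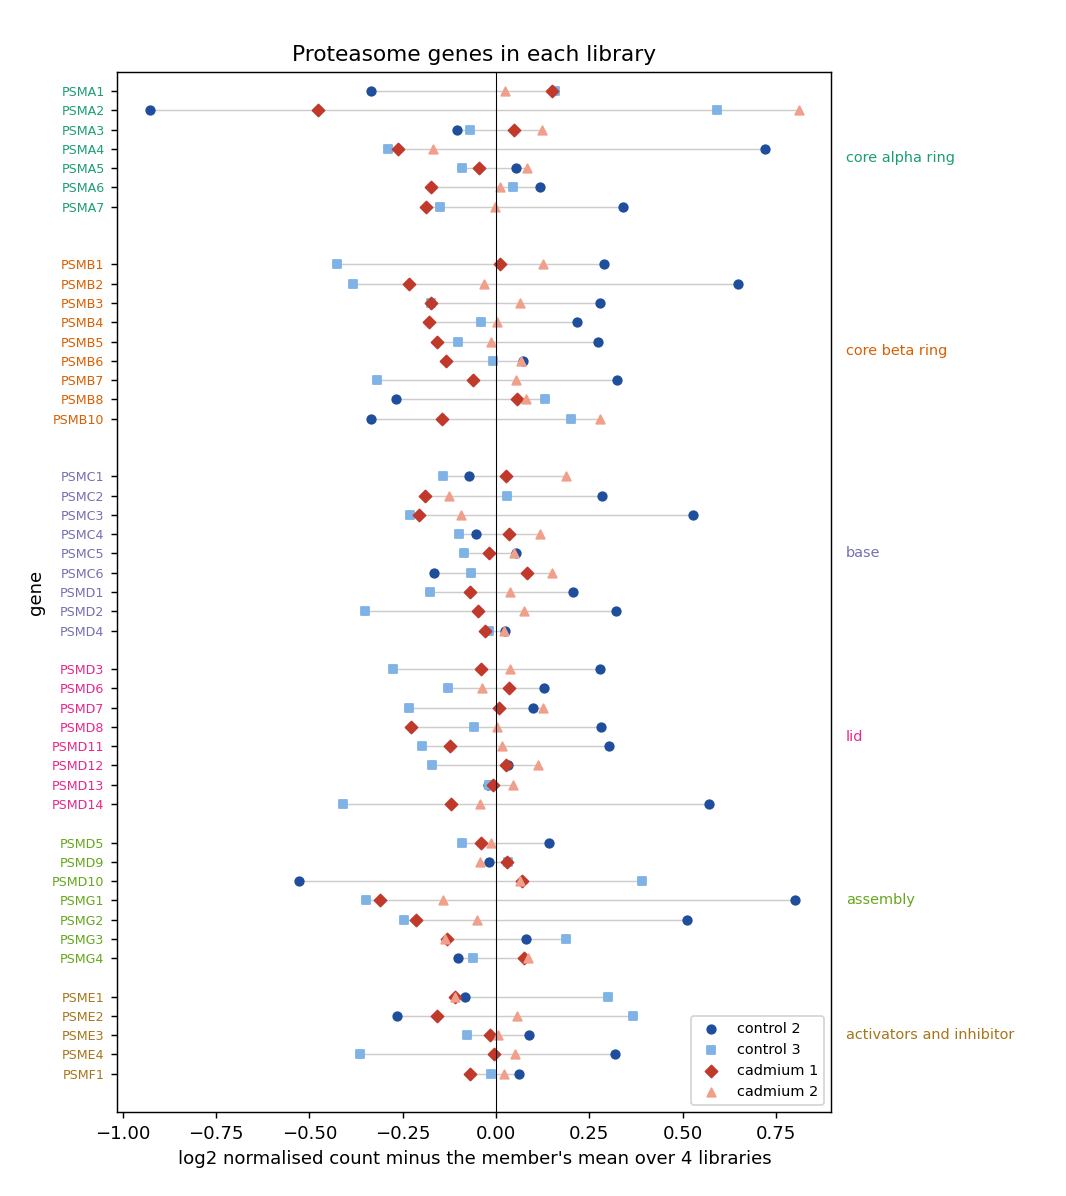
Log2 normalised count of each proteasome gene minus its mean over the 4 libraries (x axis), by gene and role (y axis), with 1 mark per library and a line over their range. Control 2 is the highest library for 27 of 45 genes and control 3 the lowest for 23, while cadmium 1 is highest for 0 and cadmium 2 for 11.

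The spread between the controls was the main difference seen among these libraries. The median absolute log2 ratio between libraries of a group was 0.37 for the controls and 0.11 for the cadmium pair, beside 0.49 and 0.17 for all genes tested. The wider spread of the controls was thus not particular to the members. Of 45 members 36 were further apart between the controls. More than 1.5-fold separated the controls for 13 members, of which 10 were higher in control 2, and the cadmium libraries for 1, PSMA2. Control 2 was above control 3 for 32 members (71.1%), beside 50.6% of all genes tested. The median log2 ratio of control 2 over control 3 was 0.20 for the members and 0.01 for all genes. It was 0.37 for the beta ring, 0.34 for the lid, 0.14 for the base, 0.07 for the alpha ring, 0.08 for the activators and inhibitor, and -0.04 for assembly factors. Summed over the members, normalised counts were 384472 and 294595 in control 2 and control 3, against 306718 and 331317 in cadmium 1 and cadmium 2. The order of the sums was the same as the order of the shares of reads.

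PSMB8, PSMB10, PSME1 and PSME2, which were grouped after their values were seen as the interferon-inducible members, were among the 13 members higher in control 3. The others included PSMD10, PSMA2 and PSMA1, with log2 ratios of control 2 over control 3 of -0.92, -1.52 and -0.49. This direction was therefore not particular to the interferon-inducible members. PSMA2 and PSMA1 share most of their main transcript with exons of other genes, so their ratios are uncertain. PSMC6, PSMG3, PSMD9, PSMG4, PSMA3 and PSMD13 were near no difference, from -0.11 for PSMG3 to -0.003 for PSMD13. Control 2 over control 3 gave log2 ratios of -0.40 for PSMB8, -0.53 for PSMB10, -0.38 for PSME1 and -0.63 for PSME2. The constitutive catalytic subunits PSMB5, PSMB6 and PSMB7 had ratios of 0.37, 0.08 and 0.64. The difference between these 2 sets was not tested. PSMD10, at -0.92, was the assembly factor that stood lowest in control 2, and PSMG1, at 1.15, the one that stood highest.

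Each control was then used alone against both cadmium libraries, which fits 3 libraries and assumes that the lone control varies like the cadmium pair. Against control 2, DESeq2 called 17 members (37.8%) lower, beside 17.7% of all genes, and 2 members (4.44%) higher, beside 13.5% of all genes. The members called higher were PSMB8 and PSMD10. Against control 3, it called 5 members (11.1%) higher, beside 7.36% of all genes, and 2 members (4.44%) lower, beside 7.43%. The members called higher were PSMB1, PSMB7, PSMD2, PSMD14 and PSME4, and those called lower were PSME1 and PSME2. PSMB7, PSMD2, PSMD14 and PSME4 were called in both, in opposite directions, as were 3.16% of the 15624 genes tested in both. In both and in the same direction 0 members were called, beside 5.17% of those genes. The fits share the cadmium libraries. PSMD14 had a log2 fold change of -0.66 against control 2 and 0.33 against control 3. For PSMB7 these values were -0.34 and 0.32. PSMG1 was at -1.04 and 0.12, and PSMA4 at -0.95 and 0.07, so that their lower estimates in the full comparison rested on control 2. Members of the opposite pattern included PSMD10, at 0.58 and -0.33, PSME2, at 0.21 and -0.42, and PSMB8, at 0.33 and -0.07. PSMA2, at 1.22 and -0.29, PSMA1, at 0.41 and -0.07, and PSMB10, at 0.41 and -0.12, had it too. PSMC2 kept its direction, at -0.45 and -0.19. PSMG3 did so too, at -0.23 and -0.32, as did PSMC6 in the other direction, at 0.27 and 0.18.

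**Figure D3:**
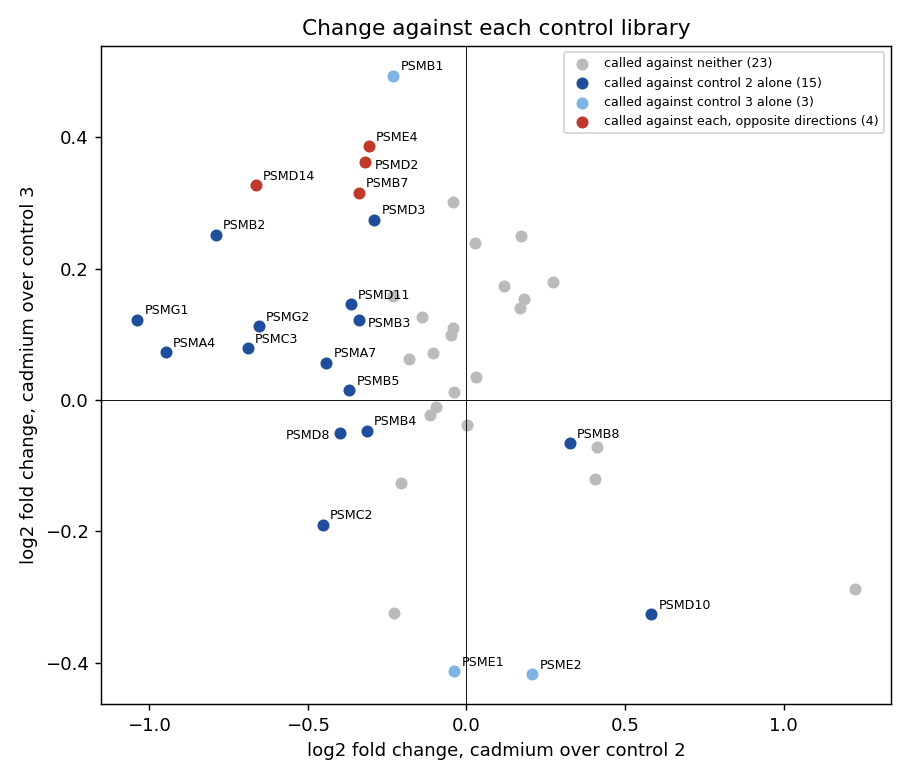
Log2 fold change of cadmium-resistant cells over control 2 alone (x axis) and over control 3 alone (y axis), with 1 point per proteasome gene. The axes share the cadmium libraries; the 4 members called against each control lie at the upper left, lower than control 2 and higher than control 3.

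Libraries can also differ over whole stretches of chromosome, so each member was set beside its 40 nearest expressed genes. The median log2 ratio of control 2 over control 3 among neighbours ran from -0.75 around PSMD10 to 0.79 around PSMA4. The members' own ratios had a Pearson correlation of 0.61 with these medians over 45 genes, and 0.75 without PSMA2. Some members share neighbours and all points share the same libraries, so this is a description. For PSMA4 the member was at 1.01 beside 0.79, and PSMB2 was at 1.03 beside 0.72. For PSMD10 the values were -0.92 and -0.75. PSMG1 and PSMD14 were further from their neighbours, at 1.15 beside 0.33 and 0.98 beside 0.37. The member was on the same side as its neighbours in 29 of 45 cases and above them in 31. The cadmium fold changes showed the same closeness for several genes with the largest estimates. PSMA4 was at -0.52 beside -0.45 for its neighbours, PSMB2 at -0.35 beside -0.35, PSMC3 at -0.35 beside -0.33, PSMC2 at -0.32 beside -0.34 and PSMG2 at -0.31 beside -0.30. PSMG1 was at -0.56 beside -0.39. Others with smaller estimates went both ways. PSME1 at -0.23 and PSMD8 at -0.23 each stood beside 0.01, while PSMD14 was at -0.24 beside -0.28. The cadmium ratio of the member was on the side of its neighbours in 30 of 45 cases. The part that the stretch of chromosome has in these values was not tested.

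**Figure D4:**
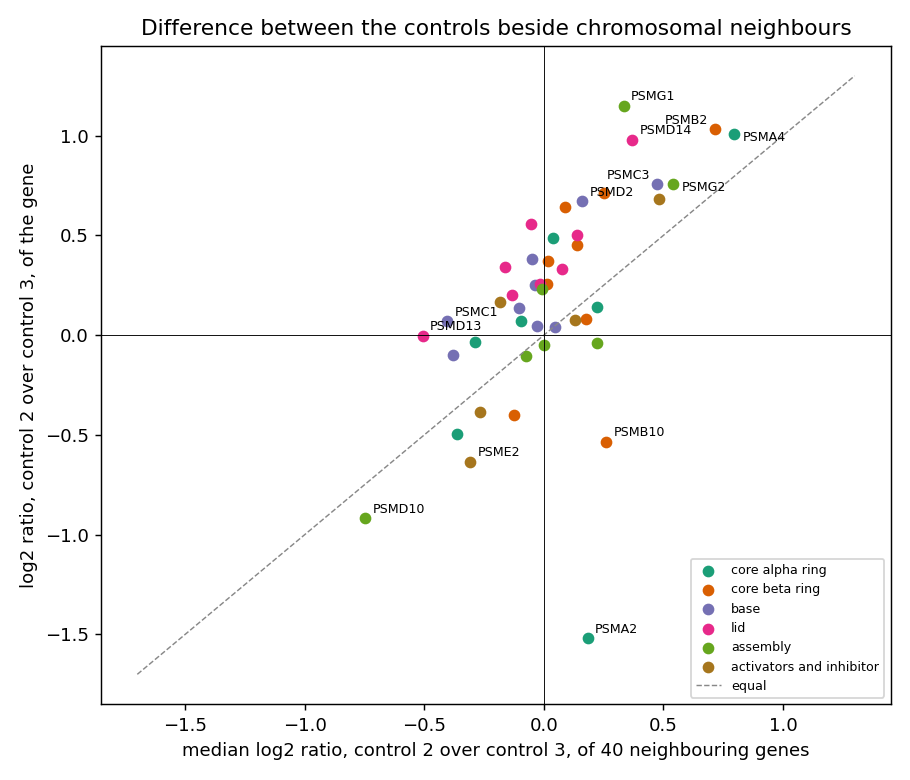
Log2 ratio of control 2 over control 3 for each proteasome gene (y axis) and the median of that ratio over its 40 nearest expressed genes (x axis), coloured by role, with a dashed line where they are equal. Most points lie above the line (31 of 45), and PSMA4, PSMB2 and PSMD10 lie near their neighbours at the ends of the range.

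Levels were compared between genes per length. PSMA7 was the most abundant member at a mean of 939 TPM over the 4 libraries, followed by PSMD2 at 592 and PSMC3 at 536. The order after PSMA7 depends on the length used. With the length of the main transcript PSMA7 was at 1710, PSMB4 at 1012, PSMD2 at 1009, PSMB1 at 837 and PSMC3 at 792. Library totals were not recomputed with that length, so values by main transcript are not TPM and serve only to compare members. Constitutive core genes whose transcripts are mostly their own (11 genes) ran from 82.8 to 939 TPM with a median of 344. Against these, PSMA2 was at 0.371 TPM, PSMA6 at 7.17 and PSMA1 at 18.9, although each encodes a subunit that standard core particles hold. With the length of the main transcript these were at 2.17, 45.6 and 48.2, still below the range of 124 to 1710 of the same 11 genes, whose median was then 602. In the Ensembl annotation, exons of read-through genes, which join a neighbour to the member, cover 100% of the main transcript of PSMA2, 81.4% of that of PSMA6 and 67.0% of that of PSMA1. Reads that overlapped more than 1 gene were dropped in the counting, so the counts of these genes come from the remainder. PSMB10 (56.1%, 20.9 TPM, also with a read-through gene), PSMC1 (83.2%, 55.0 TPM, with NRDE2 on the opposite strand) and PSMD7 (51.6%, 64.7 TPM, with a noncoding gene on the opposite strand) were the other members with over 50% shared. Strand was ignored in the counting, so genes on opposite strands also lost reads to each other. PSMA2 was left with 18.9, 54.2, 25.9 and 63.2 normalised counts, the widest relative spread of any tested member. PSMA6P1, a pseudogene of PSMA6, had 65.5% as many reads as PSMA6. Reads of near-identical copies cannot be assigned with certainty, and 8 of 44 pseudogenes named after members had more than 1% of the reads of their parent. Fold changes of PSMA1, PSMA2, PSMA6, PSMB10, PSMC1 and PSMD7 are therefore uncertain, and PSMA6 and PSMC1 are among those outside the control range. With these 6 genes left out, a choice made after seeing the data, the median log2 fold change of the alpha ring was -0.08 in place of 0.04.

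**Figure D5:**
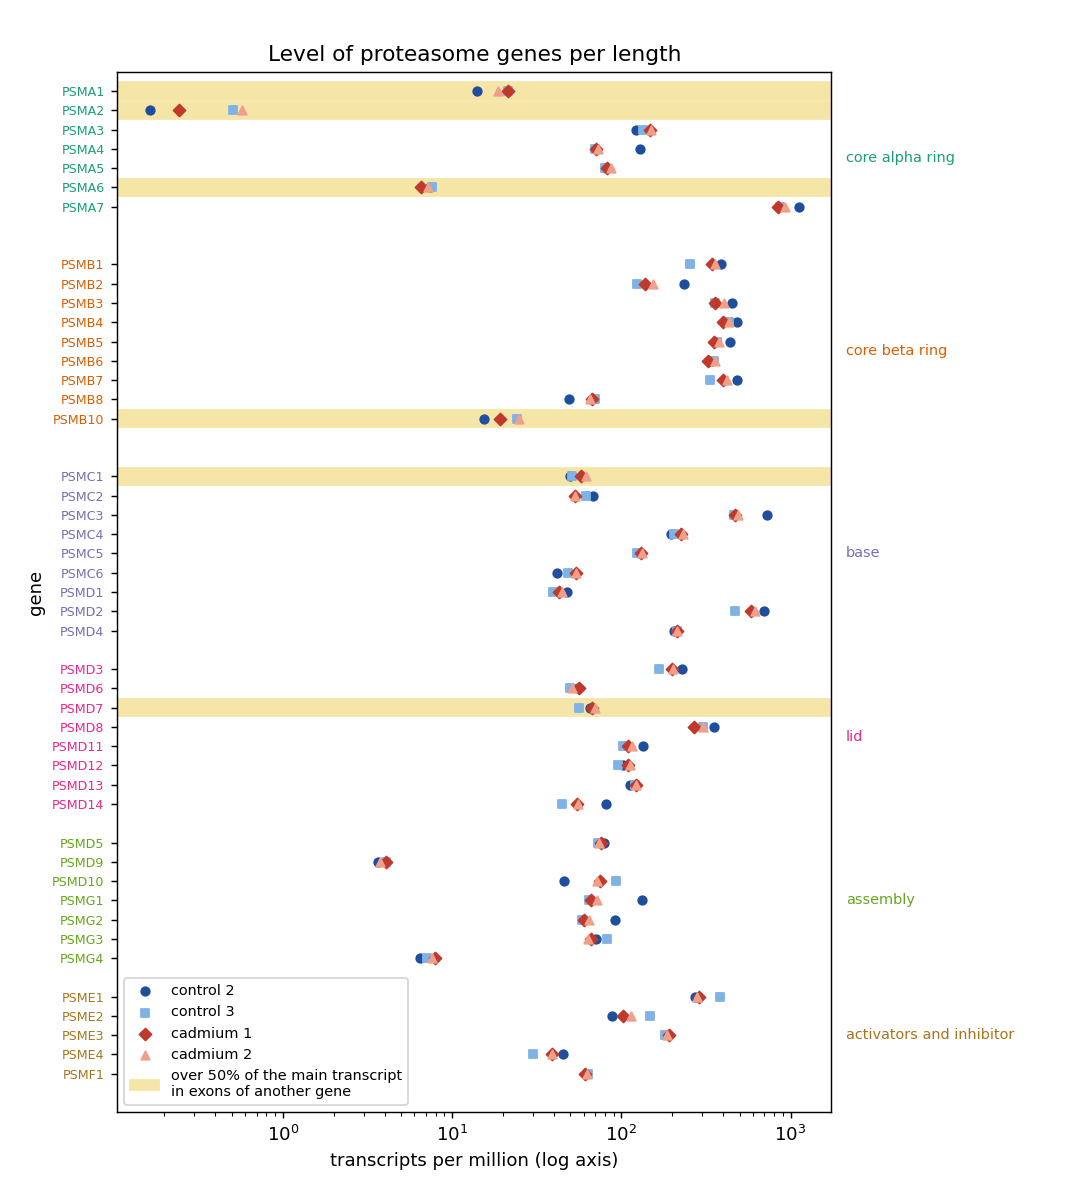
Level of each proteasome gene in TPM (x axis, log scale) by gene and role (y axis), with 1 mark per library; shaded rows mark the 6 genes with over 50% of the main transcript in exons of another gene. The 3 shaded alpha genes lie below the other tested alpha genes in all libraries, and PSMA8 and PSMB11 are not drawn.

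Partners of the proteasome, such as shuttle factors and bound enzymes, were 31 genes outside the naming rule. Of these 0 were called, beside 1.14% of all genes tested. Estimates were higher for 11 partners and lower for 20, beside 9398 and 10418 of all genes, with a partner median of -0.09 on the log2 scale. The lowest adjusted p-value of a partner by DESeq2 was 0.894. At an unadjusted p-value below 0.05 there were 0 partners by DESeq2 and 0 by edgeR. For 4 partners (12.9%) both cadmium libraries were above both controls, beside 20.3% of all genes, and for 6 (19.4%) they were below, beside 19.9%. SEM1, the smallest lid subunit, had 4798 and 4262 normalised counts in control 2 and control 3 and 3268 and 3593 in cadmium 1 and cadmium 2. Its groups did not overlap, and its log2 fold change was -0.40 ± 0.25 (SE). UBQLN2, which shuttles ubiquitinated proteins to the proteasome, had 2053, 3648, 4111 and 4178, with a log2 fold change of 0.54 ± 0.35 (SE). It was at 1.00 against control 2 alone and 0.18 against control 3 alone.

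The regulators of proteasome gene transcription were not called either. NFE2L1 had 19620 and 17235 normalised counts in control 2 and control 3 and 20842 and 18550 in cadmium 1 and cadmium 2, so the groups overlapped, and its log2 fold change was 0.10 ± 0.25 (SE). NFE2L2, the oxidative stress factor that binds the same element, had 6472, 4991, 5272 and 5294 and a log2 fold change of -0.12 ± 0.27 (SE). NGLY1, the enzyme that removes sugar chains from the NFE2L1 protein as it is activated, had 1874, 1777, 1458 and 1340. Its cadmium libraries were both below both controls, with a log2 fold change of -0.38 ± 0.26 (SE) and an adjusted p-value of 0.909 by DESeq2. POMP, the maturation factor that joins the parts of the core, had 4761, 3582, 3968 and 4198 and a log2 fold change of -0.03 ± 0.28 (SE). ADRM1, a ubiquitin receptor of the base, had 9637, 8151, 7760 and 8856 and a log2 fold change of -0.10 ± 0.26 (SE).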

How the data were processed

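Total RNA was sequenced in pairs of reads. The authors removed adaptors (bbduk), aligned to hg38 (hisat2) and deposited raw counts of reads per gene of an Ensembl annotation from featureCounts 2.0.1, without normalization. Default options applied, so strand was ignored, reads in several genes or places were dropped, and mates were counted separately. A count thus overstates the number of fragments, and intervals cover no error of that kind.

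The members and lists were chosen with earlier results of these data known. DESeq2 1.42.0 (design: group, two-sided Wald test, median-of-ratios size factors, R 4.3.3), the tool of the study, was fitted on all genes, with Benjamini-Hochberg adjustment after independent filtering at a mean count of 7.69. Size factors were 1.06, 0.940, 1.00 and 1.01 for control 2, control 3, cadmium 1 and cadmium 2. Intervals are the estimate ± 1.96 standard errors. Alternatives were edgeR 4.0.16 (quasi-likelihood test), limma 3.58.1 (voom), TMM or upper-quartile factors, other filters on low counts, protein-coding genes only, an adjusted p-value below 0.05, halved counts and leaving out each library. The scripts were tested on simulated data. Coordinates are 1-based on hg38. Symbols matched 61369 of the genes. GENCODE, on that assembly, gave gene types and main transcripts, and RefSeq gave promoters.

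Genes described in full were the 2 members of each role with the largest absolute fold change at a mean normalised count of at least 50, the catalytic subunits with PSMB8 and PSMB10, PSMD4, PSMD10, PSMD14, PSMG1, PSME1 and PSME2, and, of the partners, the 4 with the lowest p-value with NFE2L1, NFE2L2, POMP and ADRM1. One gene that this rule names is not reported here. Other genes were named after their values were seen. CUT&RUN and ATAC-seq data were not analysed here.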

Additional observations from a re-analysis of the deposited data

How the results depend on the processing

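No proteasome gene was called under edgeR, limma-voom, TMM or upper-quartile factors, other filters on low counts, protein-coding genes only, an adjusted p-value below 0.05 or halved counts. Leaving out each library gave 0 to 5 members called higher and 0 to 17 lower, and 0 to 4 partners called higher and 0 to 10 lower. The 4 and 10 partners (12.9% and 32.3%) arose without control 3, beside 13.5% and 17.7% of all genes. Calls appeared only when a control was left out. Those fits take the spread within groups from the cadmium pair alone. Its median absolute log2 ratio over all genes tested was 0.17, beside 0.49 for the controls. The cause of the calls was not tested. Over these fits the median log2 fold change ran from -0.14 to 0.078 for all members, -0.26 to 0.086 for the alpha ring, -0.31 to 0.015 for the beta ring, -0.050 to 0.16 for the base, -0.22 to 0.19 for the lid, -0.18 to 0.063 for assembly factors and -0.097 to -0.0063 for the activators and inhibitor. With 6 members of mostly shared exons left out, which was chosen after seeing the data, the alpha ring median was -0.084. With upper-quartile factors the median was 0.013 for the activators and inhibitor, 0.052 for the base, 0.044 for the lid, 0.0034 for assembly factors and 0.033 for all members. With protein-coding genes only it was 0.028 for the base, 0.019 for the lid and 0.0089 for all members. With limma-voom it was 0.028 for the base. Each of these was opposite in sign to the reported value. No paired analysis was possible because replicate numbers of the controls are 1 and 2 in the labels but 2 and 3 in the count table.

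Estimates lay on both sides of 0 for 31 of 45 members when a library was left out. Of the genes described in full, those that did so ran from -1.04 to 0.12 for PSMG1, -0.95 to 0.072 for PSMA4, -0.79 to 0.25 for PSMB2, -0.69 to 0.078 for PSMC3, -0.66 to 0.33 for PSMD14, -0.65 to 0.11 for PSMG2, -0.44 to 0.057 for PSMA7, -0.37 to 0.015 for PSMB5, -0.17 to 0.030 for PSMB6, -0.34 to 0.32 for PSMB7, -0.066 to 0.33 for PSMB8, -0.12 to 0.41 for PSMB10, -0.33 to 0.58 for PSMD10, -0.040 to 0.013 for PSMD4, -0.42 to 0.21 for PSME2, -0.23 to 0.025 for ADRM1, -0.0060 to 0.19 for NFE2L1, -0.30 to 0.080 for NFE2L2 and -0.23 to 0.19 for POMP. With upper-quartile factors estimates turned to 0.030 for POMP, 0.021 for PSMB7 and 0.052 for PSMD4, and with protein-coding genes only to 0.0047 for POMP and 0.026 for PSMD4. With the length of the main transcript, a choice made after seeing the data, levels were 1710 for PSMA7, 1009 for PSMD2, 572 for PSMB5 and 195 for PSMB8. Library totals were not recomputed with that length, so these values are not TPM.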
